A study of Arabidopsis thaliana with 4 samples.

Results

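The genes described here are those with higher transcript levels in both of 2 insertion mutants of SFR6 than in wild-type Arabidopsis thaliana seedlings, all after cold. The SFR6 protein is the MED16 subunit of Mediator, which relays signals from DNA-bound transcription factors to RNA polymerase II. Loss of SFR6 is best known for lowering the expression of cold-induced genes and for sensitivity to freezing, and the genes described here lie on the opposite side, with more transcript in the mutants. Plants respond to cold by remodelling walls and membranes, by shifting sugar and redox metabolism and by slowing growth.

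The members were chosen by their measured ratios. A gene entered when its expression value in the mutant was at least 1.5 times that in the wild type of the same experiment, in both experiments. All ratios below are log2 differences, mutant minus its own Col-0. It also needed a probe set assigned to that gene alone and a mean log2 value over the 4 arrays of at least 6.46, the 40th percentile of all probe sets other than array controls. Of 7205 genes past this filter, 187 met both ratios, which is 2.6%. Leaving out 15 that are treated by family or singly, among them the UDP-glycosyltransferases, left 172 members. AT2G36970 and AT5G12890 carry no symbol in the gene table and were among the 15 because they are known as UDP-glycosyltransferases.

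The mutants were sfr6-3 (WiscDsLox504A08) and sfr6-2 (SALK_048091), and each was compared with a Col-0 sample treated beside it. All samples were whole seedlings, 7 days old, kept at 5 °C for 6 h in the light, and 1 array was hybridised per sample. No unstressed sample is analysed here, so a difference in the response to cold and a difference that was there before it cannot be told apart. The ratios that chose the members are given as a description without a test, and no ratio has a replicate of its own allele. In whole seedlings, more cells of a type and more RNA per cell also cannot be told apart.

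Over the 7205 genes the median level in log2 units was 8.58 in sfr6-3 and 8.49 in its Col-0, and 8.53 in sfr6-2 and 8.50 in its Col-0. SFR6 has 0 single-gene probe sets, so the genotype was not checked on its own transcript. All 4 measured markers of green tissue read above 12 on every array, but not at equal levels. RCA, which activates Rubisco, had ratios of -0.10 and 0.05, and LHCB4.1, a light-harvesting protein, of -0.09 and 0.01. PRK, the phosphoribulokinase of the Calvin cycle, stood at -0.48 and -0.47, and LHCB4.2 at -0.98 and -0.27, so these 2 were lower in both mutants. The part of tissue content in the members' ratios was not tested. Of the root markers listed, AT3G45700 and EXPA7, an expansin of root hairs, were measured. EXPA7 read 6.37 in sfr6-3 and 6.33 in its Col-0, against 7.17 in sfr6-2 and 7.92 in its Col-0. This gene thus read lower in the sfr6-3 experiment, where both values lay under the filter level of 6.46.

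At 1.5-fold, 14.8% of the 7205 genes were higher in sfr6-3 and 9.24% in sfr6-2. For the members the median ratio was 0.80 (sfr6-3) and 0.78 (sfr6-2), against 0.11 (sfr6-3) and 0.08 (sfr6-2) over all genes past the filter. The lower of a member's 2 ratios lay under 0.7 for 84 members, between 0.7 and 0.8 for 44 and between 0.8 and 1 for 33, so most members sit close to the threshold. At least 2-fold higher in both alleles were 11 members, against 0.291% of all genes past the filter before any was left out. Just inside the threshold stood AT2G04540, whose ratio was 0.5851 in sfr6-3 and 0.60 in sfr6-2, AT1G61240, with 0.5854 and 1.07, and AT1G04000, with 0.81 and 0.5854. Just outside stood DPE1, with 0.78 in sfr6-3 and 0.5844 in sfr6-2, AT1G35550, with 0.59 and 0.5840, and AT1G77220, with 0.60 and 0.5838. In their lower ratios these genes inside and outside the threshold are nearly equal.

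**Figure D1:**
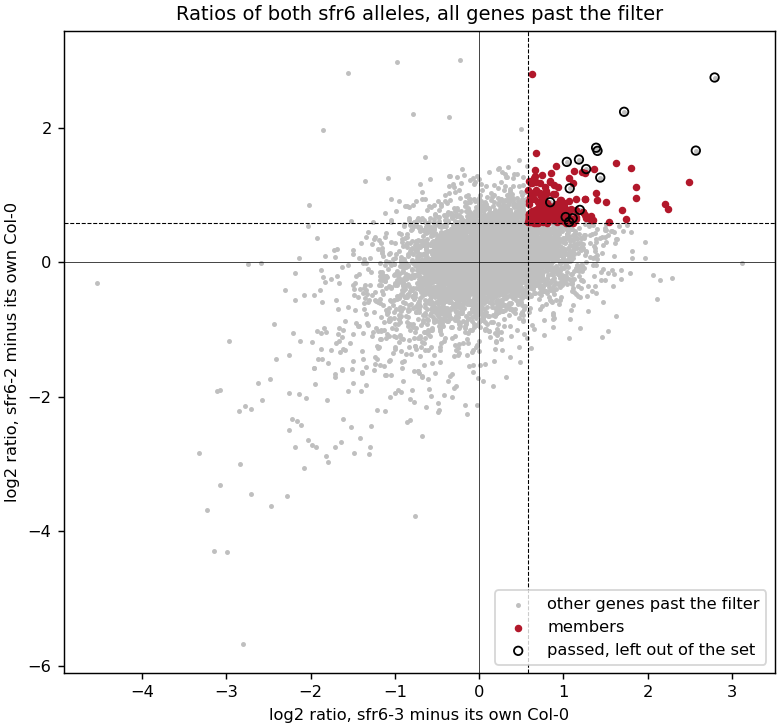
Log2 ratio of each gene past the filter in sfr6-3 (x axis) and sfr6-2 (y axis), each relative to its own wild type. Members (red) fill the corner past 1.5-fold on both axes (dashed lines), mostly near its edge, and circles mark the 15 genes that passed and were left out.

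The alleles gave similar ratios for many members. The 2 ratios of a member differed by 0.18 at the median, 91 members had ratios within 0.2 of each other, and the ratio was larger in sfr6-3 for 92 members and in sfr6-2 for 80. Closeness of this kind is partly built in, since both ratios had to pass the same threshold and most lie just above it. A gap of at least 1.5-fold between the ratios was found for 19 members.

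The wild-type arrays also differed from each other, by 0.39 at the median over the members in absolute terms, against 0.32 over all genes past the filter. Between the Col-0 arrays, 61 of 172 members (35.5%) differed by at least 1.5-fold in either direction, against 26.1% of all genes past the filter, and for 43 members the Col-0 difference was at least as large as the lower of the 2 ratios. The Col-0 sample beside sfr6-2 was the higher of the 2 for 117 members, a count not made over all genes. Col-0 beside sfr6-2 minus Col-0 beside sfr6-3 was 0.20 at the median over the members. Over all genes past the filter it was 0.06. Both mutant arrays were above both Col-0 arrays for 145 members, or 84.3% of them, while 27 members overlapped, and over all genes past the filter that pattern held for 24.8%. For each of the 27, exchanging the Col-0 arrays took the ratio in one allele below 0. That is the same overlap in other words, since each mutant was above its own Col-0. Because each ratio already places one mutant array above one Col-0 array, the count of 145 follows largely from the choice of members.

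The members were dimmer than other genes. Their median mean level was 7.63, against 8.52 over all genes past the filter, and 60 of them (34.9%) had at least 1 array under the filter level of 6.46, against 10.7% of all genes past it. Those arrays were mostly wild type: 45 members were under that level in the Col-0 array beside sfr6-3 and 31 in that beside sfr6-2. In sfr6-3 there were 3 such members and in sfr6-2 there were 0. This split follows largely from the rule, which places each mutant above its own Col-0. Members with a dim wild type reached the mean of 6.46 through their other arrays. After raising dim values to 6.46, 140 members still passed, with a constant added before logs 113 did, and with the filter at the 60th percentile 63 did. At the bright end, 20 members had a mean level of 10 or more.

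A symbol is given in the gene table for 20 members, and 152 are known there by locus tag alone. For 135 members a function can be named, for locus tags at the level of the protein family and as general knowledge of the Arabidopsis genome that the files do not contain. They were sorted by hand into 12 classes, knowing their ratios, and 37 were left without a function. The largest classes were metabolic enzymes with 23 members and proteins of the wall and extracellular space with 21. Because the other genes were not sorted the same way, the class sizes say what the members are and not whether a class is over-represented.

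**Figure D2:**
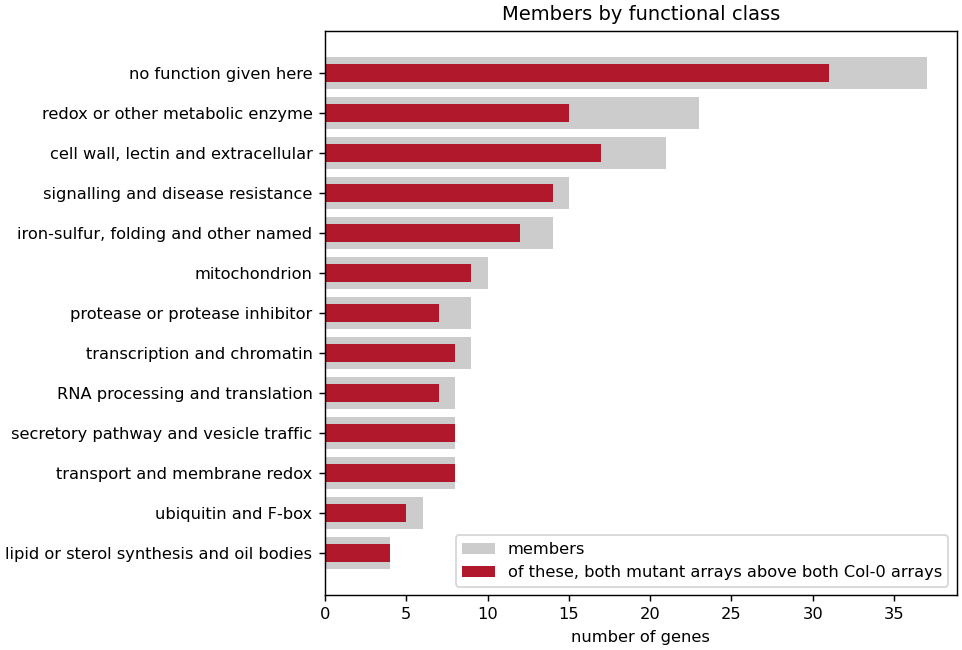
Number of members in each functional class (grey bars) and, of these, the number for which both mutant arrays read above both Col-0 arrays (red bars). Over all members 145 of 172 were of that kind, which follows largely from how they were chosen, and no difference between classes was tested.

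Among the metabolic enzymes, AT5G41670 had the highest lower ratio of all members. It encodes a 6-phosphogluconate dehydrogenase, the enzyme of the oxidative pentose phosphate pathway that makes NADPH and ribulose 5-phosphate. It read 10.96 in sfr6-3 against 9.33 in its Col-0, and 11.50 in sfr6-2 against 10.02 in its Col-0, ratios of 1.62 and 1.48. Both mutants were above both wild types, by more than the 0.69 between the Col-0 arrays. AT1G64190, a second gene for the same enzyme, was also a member, with 11.37 in sfr6-3 against 10.58 in its Col-0 and 11.84 in sfr6-2 against 11.09 in its Col-0. The remaining gene for this enzyme, AT3G02360, had ratios of 0.24 and 0.09 and was not a member.

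The rest of the pentose phosphate pathway was mixed. Of 25 genes listed, 7 were measured past the filter, 2 of them members, and 5 were above 0 in both alleles, a pattern shown by 39.9% of all genes past the filter. The median of the 7 was 0.65 in sfr6-3 and 0.33 in sfr6-2. AT5G44520, for a ribose 5-phosphate isomerase, lay at -0.57 and -0.58, and AT1G12230, for a transaldolase, at 0.73 and 0.04. This list, like the others below, was drawn up after its members were known, so it gives their setting and no separate evidence of direction.

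AT3G02910, of the family named for avirulence-induced AIG2, read 9.67 in sfr6-3 against 8.55 in its Col-0, and 10.27 in sfr6-2 against 9.08 in its Col-0. AT5G51830, for a fructokinase-like sugar kinase, had ratios of 0.74 (sfr6-3) and 1.30 (sfr6-2). Its Col-0 arrays differed by 0.04 only. AT3G58610 encodes ketol-acid reductoisomerase, an enzyme of branched-chain amino acid synthesis, and was the brightest member at a mean of 13.56, with ratios of 0.61 and 0.62. AT3G23940, for the next enzyme of that pathway, stood at 0.75 in sfr6-3 and 0.52 in sfr6-2, just short of the rule, whereas AT2G31810, for the regulatory subunit of the first enzyme, stood at -0.65 and -0.30.

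Of the redox enzymes in the same class, 3 differed more between the wild types than between mutant and wild type. AT1G75280, of the isoflavone reductase-like family, read 13.29 in sfr6-3 against 12.53 in its Col-0, but 12.14 in sfr6-2 against 11.29 in its Col-0. The wild type of the sfr6-3 experiment thus lay above the sfr6-2 mutant. MSRB5, a methionine sulfoxide reductase that repairs oxidised protein, read 11.20 in sfr6-3 against 10.44 in its Col-0, and 10.35 in sfr6-2 against 9.42 in its Col-0. The 2-oxoglutarate-dependent dioxygenase gene AT3G19000 followed the same order, with ratios of 0.77 and 0.96 and a Col-0 difference of -1.02. For all 3 genes the groups overlap, and against the Col-0 of the other experiment sfr6-2 stood at -0.39 for AT1G75280, -0.09 for MSRB5 and -0.05 for AT3G19000.

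Other enzymes in this class were uneven between alleles. AT3G16990, of a family related to thiaminase, had ratios of 2.20 (sfr6-3) and 0.87 (sfr6-2), but it read 4.60 in the Col-0 beside sfr6-3, far under the filter level, and 6.80 in sfr6-3. AT3G01260, of the galactose mutarotase-like family, went the other way, with 0.66 and 1.38. AT3G60440, of the phosphoglycerate mutase family, had 0.85 and 1.33. The groups overlapped for these 3 genes, and set against the Col-0 beside sfr6-2, sfr6-3 stood at -0.16 for AT3G16990, -0.27 for AT3G01260 and -0.03 for AT3G60440. AT5G49555, a flavin-dependent oxidoreductase family gene, had 0.88 and 1.15. AT2G21045, known as an arsenate reductase of the rhodanese type, read 9.83 in sfr6-3 against 9.16 in its Col-0, and 10.50 in sfr6-2 against 9.30 in its Col-0.

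**Figure D3:**
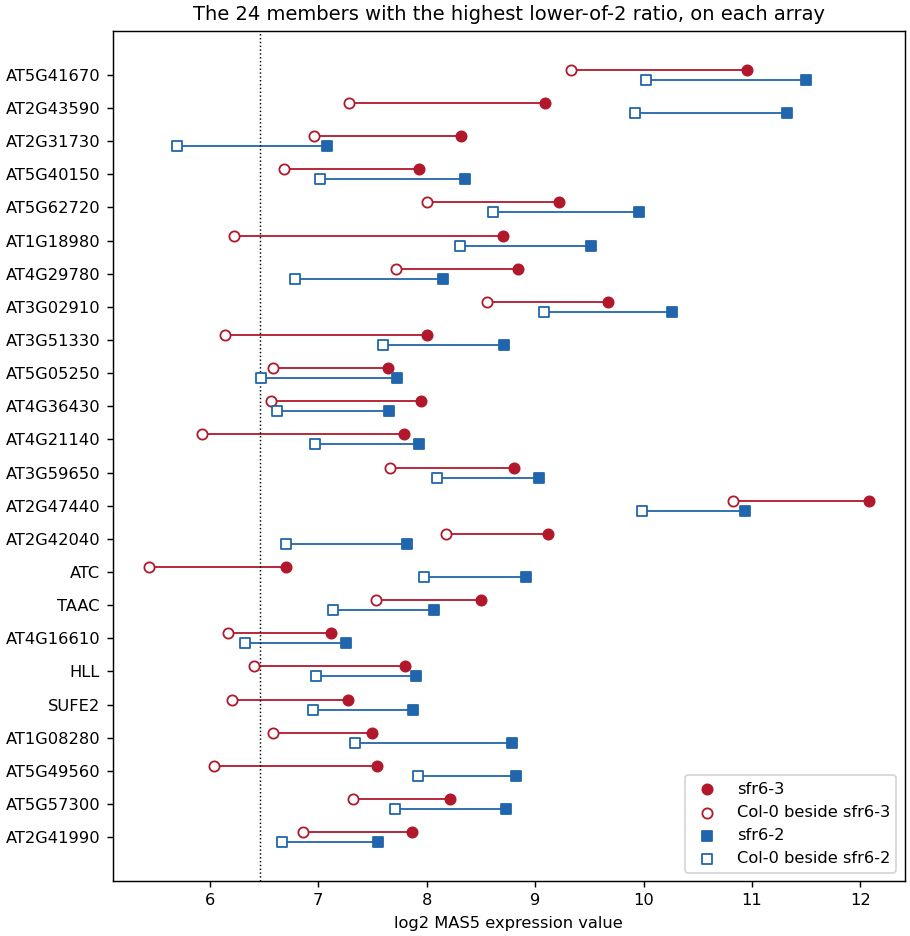
Log2 MAS5 expression value (x axis) of the 24 members with the highest lower-of-2 ratio, with mutants as filled and Col-0 samples as open symbols, circles for the sfr6-3 experiment and squares for the sfr6-2 experiment. Each line joins a mutant to its own Col-0, the dotted line is the filter level of 6.46, and for AT2G43590, AT2G42040, ATC and AT5G49560 the wild type of one experiment lies above the mutant of the other.

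Proteins of the wall and extracellular space included 4 class III peroxidases, secreted enzymes that cross-link or loosen wall polymers and build lignin. AT5G40150 read 7.93 in sfr6-3 against 6.68 in its Col-0, and 8.35 in sfr6-2 against 7.02 in its Col-0. AT4G36430 read 7.95 in sfr6-3 against 6.57 in its Col-0, and 7.65 in sfr6-2 against 6.62 in its Col-0. For both genes the mutants were well apart from the wild types, which differed by 0.34 and 0.05. AT5G66390, named PRX72 and known from lignification, had ratios of 0.97 and 0.87, and AT3G01190 had 1.74 and 0.65.

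The peroxidase family as a whole did not share this direction. Of 73 genes listed, 30 were measured past the filter, and besides the 4 members there were 3 at least 1.5-fold lower in both alleles. These were AT5G64120, at -1.76 in sfr6-3 and -1.31 in sfr6-2, AT2G37130, at -0.73 and -1.62, and AT5G64100, at -0.83 and -1.15. In sfr6-3 14 of the 30 were at least 1.5-fold higher, against 14.8% of all genes past the filter, and the median was 0.48. In sfr6-2 4 of the 30 were, against 9.24% of all genes, and the median was -0.11. The 4 members among the 30 stand beside 2.6% of all genes, and the rule used the same ratios. Many of these genes are known from roots, and the root hair gene EXPA7 had ratios of 0.03 (sfr6-3) and -0.76 (sfr6-2), and AT3G45700 of 0.20 and -0.35. The part of root content in these ratios was not tested.

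The other wall members act on pectin, callose and glycoproteins. AT1G18980, a germin-like protein gene, read 8.71 in sfr6-3 against 6.22 in its Col-0, and 9.52 in sfr6-2 against 8.31 in its Col-0. Its ratio of 2.48 was the highest of any member in sfr6-3, with a Col-0 value there under the filter level. AT1G04680, for a pectate lyase-like protein, read 11.06 in sfr6-3 against 10.20 in its Col-0, and 11.27 in sfr6-2 against 10.51 in its Col-0. AT5G64640, for a pectin methylesterase with an inhibitor domain, had ratios of 0.65 and 1.26 at a mean of 6.48. AT3G13560, of the family of beta-1,3-glucanases that act on callose, read 9.26 in sfr6-3 against 8.30 in its Col-0, and 9.11 in sfr6-2 against 8.29 in its Col-0. AT2G01630 of the same family had 1.54 and 0.61, the first against a Col-0 value of 5.93, under the filter level. AT1G08280 (GALT29A), a glycosyltransferase of arabinogalactan proteins, had 0.91 and 1.44.

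Proteins linked to defence were found in the same class. AT2G43590, of the chitinase family, read 9.09 in sfr6-3 against 7.29 in its Col-0, and 11.32 in sfr6-2 against 9.92 in its Col-0. The Col-0 arrays were 2.63 apart, more than either ratio, and set against the Col-0 beside sfr6-2 instead, sfr6-3 stood at -0.83. The legume-type lectins AT3G16530 and AT1G53070 had ratios of 0.96 and 0.65, and of 0.84 and 0.66. Of 6 measured genes of that family 3 were past the filter, and AT5G03350, the 1 other of these, had 0.78 and 0.34. The dirigent proteins guide the coupling of phenolic radicals. Of 15 measured, 9 were past the filter. AT1G22900 was a member at 0.73 and 0.99 and AT3G13650 at 0.92 and 0.61, while AT4G11210 lay at -1.13 and -1.005. The median of the 9 was 0.52 in sfr6-3 and -0.11 in sfr6-2. For AT3G13650 the wild types were 2.05 apart, and set against the Col-0 beside sfr6-2, sfr6-3 stood at -1.13.

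**Figure D4:**
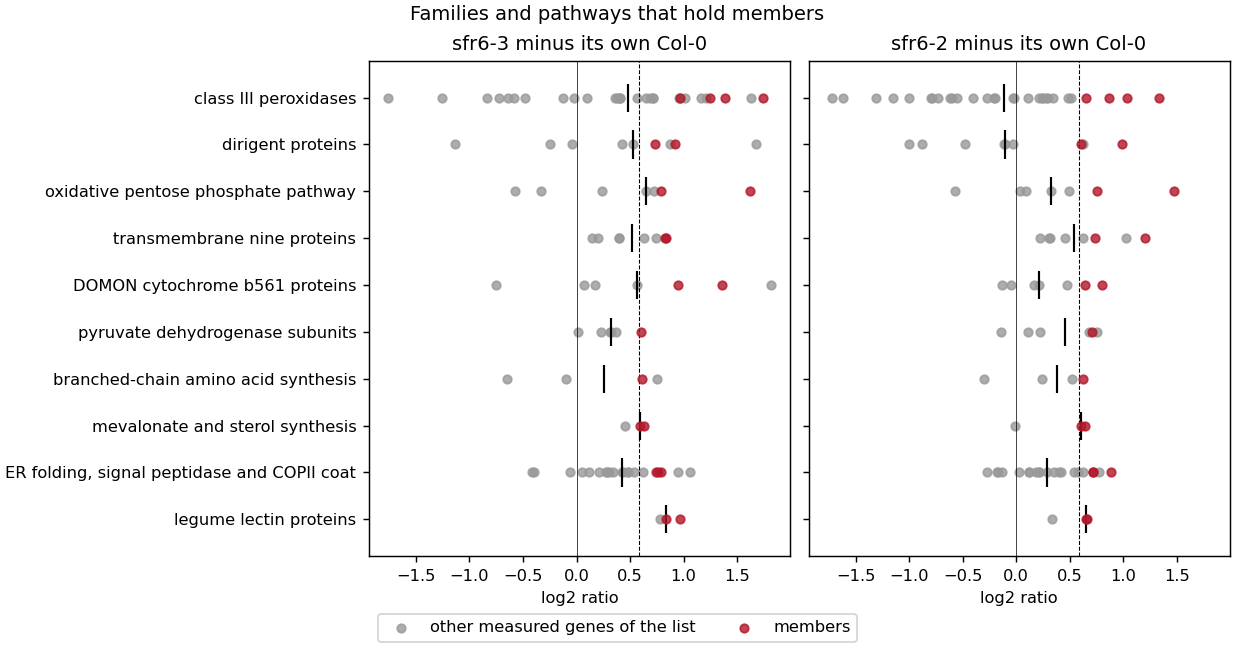
Log2 ratio of each gene past the filter in 10 families and pathways, with members as red points and the other genes as grey points. The left panel shows sfr6-3 and the right sfr6-2, with the list median as a black bar and the 1.5-fold threshold dashed. All 8 measured genes of the endomembrane TMN family and all 3 legume lectins past the filter lie above 0 in both alleles. Of all genes past the filter 39.9% do, and the rule itself placed the members there. Peroxidases and dirigent proteins spread to both sides.

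Proteases and their inhibitors gave 9 members. AT3G51330, for an aspartyl protease, read 8.00 in sfr6-3 against 6.14 in its Col-0, and 8.72 in sfr6-2 against 7.60 in its Col-0. AT1G66180, for another aspartyl protease, was much brighter, at 11.79 in sfr6-3 against 11.04 in its Col-0 and 10.66 in sfr6-2 against 9.89 in its Col-0, with the wild types 1.15 apart, and set against the Col-0 beside sfr6-3, sfr6-2 stood at -0.38. APM1 encodes an aminopeptidase that acts in auxin transport and root growth. It read 10.77 in sfr6-3 against 10.11 in its Col-0, and 10.93 in sfr6-2 against 10.15 in its Col-0. SCPL34, a serine carboxypeptidase-like gene, had ratios of 0.72 and 1.04, and MMP, for a matrix metalloproteinase, had 1.12 and 0.59. The Col-0 value of MMP beside sfr6-3 was 5.56, under the filter level. The subtilase gene SBT4.12 had 1.08 and 0.62, but its wild types were 1.34 apart, and set against the Col-0 beside sfr6-2, sfr6-3 stood at -0.26. AT4G01575, for a Kazal-type inhibitor of serine proteases, had 0.88 and 0.64.

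Mitochondrial proteins were encoded by 10 members, with median ratios of 0.84 (sfr6-3) and 0.81 (sfr6-2). AT3G59650, for a mitochondrial ribosomal protein, read 8.81 in sfr6-3 against 7.66 in its Col-0, and 9.04 in sfr6-2 against 8.10 in its Col-0. HLL, for another such protein, needed for ovule growth, read 7.80 in sfr6-3 against 6.41 in its Col-0, and 7.90 in sfr6-2 against 6.98 in its Col-0. AT5G57300 encodes a methyltransferase of ubiquinone synthesis and had ratios of 0.90 and 1.02. In these 3 genes both mutants were above both wild types, as in 84.3% of all members, which follows largely from how members were chosen. The Col-0 value of HLL beside sfr6-3 lay under the filter level of 6.46.

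Chaperones and electron carriers of the mitochondrion followed. ATJ1, a DnaJ-type co-chaperone, had ratios of 0.89 and 0.85, AT3G55605, of the mitochondrial glycoprotein family, 0.77 and 0.72, and TO1, a thioredoxin, 0.70 and 0.61. The small heat-shock protein gene AT5G51440 read 8.64 in sfr6-3 against 7.85 in its Col-0, but 6.57 in sfr6-2 against 5.56 in its Col-0. The Col-0 beside sfr6-2 was lower by 2.30 than that beside sfr6-3, so the ratios of 0.79 and 1.01 are small beside the difference between experiments, and set against the Col-0 beside sfr6-3, sfr6-2 stood at -1.28. AT2G07695 is a nuclear copy of the mitochondrial gene for a cytochrome c oxidase subunit, so its ratios of 0.98 and 0.77 are uncertain, since the array may not separate the copies.

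AT3G13930 encodes the acetyltransferase subunit of mitochondrial pyruvate dehydrogenase, which feeds the citric acid cycle. It read 10.65 in sfr6-3 against 10.05 in its Col-0, and 10.95 in sfr6-2 against 10.24 in its Col-0. The other mitochondrial genes for this subunit had larger ratios in sfr6-2 than in sfr6-3, LTA3 with 0.37 in sfr6-3 and 0.76 in sfr6-2 and AT1G54220 with 0.23 and 0.68. Of the 6 subunit genes measured, 5 were above 0 in both alleles, against 39.9% of all genes past the filter. Without the member, which these ratios chose, 4 of 5 were. AT4G16155, of the plastid complex, was at 0.02 and -0.14. No direction of the pathway is drawn from this list.

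Genes of the secretory pathway formed a class of 8. Both mutants were above both wild types for all 8, against 84.3% of all members, so this count says little about the class. The Col-0 arrays differed by at most 0.28 for these genes, less than any of their ratios. AT1G14670, of the TMN family of endomembrane proteins with many membrane spans, read 11.13 in sfr6-3 against 10.31 in its Col-0, and 11.05 in sfr6-2 against 10.31 in its Col-0. AT2G24170, of the same family, read 6.99 in sfr6-3 against 6.15 in its Col-0, and 7.50 in sfr6-2 against 6.30 in its Col-0.

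The remaining secretory members work at the endoplasmic reticulum and on endosomes. AT5G07340, for a calnexin that folds glycoproteins, read 8.17 in sfr6-3 against 7.41 in its Col-0, and 8.35 in sfr6-2 against 7.47 in its Col-0. AT3G23660, for a SEC23-type protein of the COPII coat, which carries cargo to the Golgi, had ratios of 0.74 and 0.72. AT3G15710, for a signal peptidase subunit, had 0.79 and 0.72, and AT3G44330, for a nicalin-like membrane protein, had 0.73 and 0.76. AT2G32760, for the VPS38 subunit of an endosomal lipid kinase complex, read 8.40 in sfr6-3 against 7.16 in its Col-0, and 8.06 in sfr6-2 against 7.31 in its Col-0. ATZW10, a tethering and spindle checkpoint protein gene, had 0.59 and 0.70.

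Other genes of this pathway were measured beside the members. Of 12 TMN genes listed, 8 were measured, and the 6 that are not members were all above 0 in both alleles, with medians of 0.39 in sfr6-3 and 0.39 in sfr6-2. Both mutants were above both wild types for 5 of these 6, against 24.8% of all genes past the filter. Of 24 measured genes for folding in the endoplasmic reticulum, signal peptidase and COPII coat, 21 were past the filter. Of these 18 are not members, and 12 of the 18 were above 0 in both alleles while 6 were not. The medians of the 18 were 0.33 in sfr6-3 and 0.21 in sfr6-2. CEF, for a SEC24-type coat protein, stood at 1.06 in sfr6-3 and 0.22 in sfr6-2, and AT3G62560, for a SAR1-type GTPase, at -0.41 and -0.18. Over all genes past the filter the share above 0 in both alleles was 39.9%, and both lists were drawn up after their members were known, so no direction of the pathway is drawn from them.

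Transporters and membrane redox proteins gave 8 members, with median ratios of 0.88 (sfr6-3) and 0.81 (sfr6-2). AT5G62720, of the HPP family of membrane proteins, read 9.22 in sfr6-3 against 8.00 in its Col-0, and 9.96 in sfr6-2 against 8.62 in its Col-0. TAAC, the thylakoid ATP/ADP carrier, read 8.50 in sfr6-3 against 7.53 in its Col-0, and 8.07 in sfr6-2 against 7.13 in its Col-0. AT5G03380, for a heavy-metal-binding protein, and AT5G62890, for a nucleobase and ascorbate type transporter, had ratios of 0.80 and 0.82, and of 0.77 and 0.74. The DOMON proteins with a cytochrome b561 domain are thought to pass electrons from ascorbate across membranes. AT3G25290 of that family had 0.95 and 0.80 and AT2G04850 had 1.36 and 0.64, but AT4G12980 lay at -0.75 and -0.05. Of 9 measured genes of that family, 7 were past the filter, and 5 of the 7 were above 0 in both alleles. Without the members 3 of 5 were, against 39.9% of all genes past the filter.

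Transcription and chromatin were represented by 9 members. AT2G31730, of the bHLH family of transcription factors, read 8.32 in sfr6-3 against 6.96 in its Col-0, and 7.08 in sfr6-2 against 5.70 in its Col-0. Its ratios of 1.36 and 1.38 were nearly equal although the wild types were 1.26 apart, and the last of these values lies under the filter level. AT4G16610, a zinc-finger protein gene, had ratios of 0.95 and 0.93. AT1G29160 encodes the DOF factor COG1, known from phytochrome signalling, and had 0.74 and 0.85. AT1G06790, for a subunit of RNA polymerase III, had 0.80 and 0.81, AT1G12400, for a small subunit of TFIIH, had 0.70 and 0.81, and ICU2, the catalytic subunit of DNA polymerase alpha, had 1.27 and 0.67.

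RNA processing and translation gave 8 members. AT1G23410, a fusion of ubiquitin and ribosomal protein S27a, read 8.54 in sfr6-3 against 7.70 in its Col-0, and 8.48 in sfr6-2 against 7.26 in its Col-0. Near-identical copies of that gene exist, and the array may not separate them. AT3G58570, a DEAD-box RNA helicase gene, had ratios of 0.82 and 0.81 with the wild types 0.22 apart. AT1G22660, for the enzyme that adds CCA to tRNA, had 1.33 and 0.69. The pentatricopeptide proteins, which process organelle RNA, were represented by AT5G15280 at 0.73 and 1.19 and AT1G11630 at 1.06 and 0.76.

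Signalling and disease resistance gave 15 members. ATC encodes a relative of TFL1 and FT that delays flowering. It read 6.70 in sfr6-3 against 5.44 in its Col-0, and 8.91 in sfr6-2 against 7.97 in its Col-0. The Col-0 arrays were 2.53 apart, and set against the Col-0 beside sfr6-2 instead, sfr6-3 stood at -1.27, so the direction for ATC depends on which wild type is used. AT5G51560, a leucine-rich repeat receptor kinase gene, read 9.46 in sfr6-3 against 8.31 in its Col-0, and 9.03 in sfr6-2 against 8.36 in its Col-0, with the wild types 0.04 apart. AT3G16560, for a protein phosphatase of the 2C type, read 10.63 in sfr6-3 against 9.92 in its Col-0, and 10.76 in sfr6-2 against 9.88 in its Col-0.

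AT1G66090, of the TIR class of disease resistance proteins, had a ratio of 0.67 in sfr6-3 and 1.63 in sfr6-2, and its mean of 6.46 is at the filter level. TKL, named for its likeness to the clock protein TIC, had 0.67 and 1.04. GSO1, a receptor kinase that shapes the embryonic cuticle and the Casparian strip, had 0.63 and 0.62, and HHP2, a heptahelical membrane protein, had 0.67 and 0.70. AT4G23470, of the PLAC8 family, read 10.04 in sfr6-3 against 9.37 in its Col-0, and 10.02 in sfr6-2 against 8.94 in its Col-0.

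Ubiquitin ligases and F-box proteins gave 6 members. ETP2, an F-box protein that targets the ethylene regulator EIN2 for degradation, had ratios of 0.65 and 1.03. AT1G66620, of the SINA-like ligases, had 0.95 and 0.79. AT5G40140, a U-box ligase gene, read 6.45 in sfr6-3 against 5.40 in its Col-0, and 7.66 in sfr6-2 against 6.88 in its Col-0, so the wild type beside sfr6-2 exceeded the sfr6-3 mutant and sfr6-3 stood at -0.43 against it. AT5G40140 lies next to the peroxidase gene AT5G40150 on the chromosome. AT5G49555 and AT5G49560 are the other adjacent pair of members, 2 pairs in all among protein-coding genes. AT5G49560, of a methyltransferase family, read 7.54 in sfr6-3 against 6.04 in its Col-0, and 8.82 in sfr6-2 against 7.92 in its Col-0. Set against the Col-0 beside sfr6-2, sfr6-3 stood at -0.38 for AT5G49560.

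Lipid genes were few, with 4 members. CPI1 opens the cyclopropane ring of sterol precursors, and AT3G54250 encodes mevalonate diphosphate decarboxylase, which feeds sterol synthesis. CPI1 had ratios of 0.59 and 0.64 and AT3G54250 had 0.63 and 0.61, and AT1G31910, for the kinase before it, had 0.45 and -0.01. AT2G04540 is the mitochondrial beta-ketoacyl synthase gene that stands last above the threshold. AT3G01570 belongs to the oleosins, which coat oil bodies of seeds. It read 6.38 in sfr6-3 against 5.76 in its Col-0, and 8.28 in sfr6-2 against 5.47 in its Col-0, the widest gap between alleles of any member. Its mean of 6.47 passed the filter through the sfr6-2 value alone, the other 3 arrays being under 6.46, and with dim values raised its sfr6-3 ratio was 0. Of 10 seed genes listed, 2 were measured, AT3G01570 and M17. M17 had ratios of -1.55 (sfr6-3) and 2.81 (sfr6-2). It read 8.33 in the Col-0 beside sfr6-3 and 4.38 in that beside sfr6-2, whereas the Col-0 values of AT3G01570 were close. The part of seed content in the sfr6-2 value of AT3G01570 was not tested.

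The remaining named members belong to no larger group. SUFE2 activates the desulfurase that supplies sulfur for iron-sulfur clusters. It read 7.27 in sfr6-3 against 6.20 in its Col-0, and 7.87 in sfr6-2 against 6.96 in its Col-0. POR encodes tubulin-folding cofactor C and had ratios of 1.14 and 0.79. AT2G47440, of the tetratricopeptide repeat proteins, was the brightest of this group, at 12.07 in sfr6-3 against 10.82 in its Col-0 and 10.93 in sfr6-2 against 9.99 in its Col-0. AT4G25835, of the AAA-type ATPases, had 0.66 and 1.29, but set against the Col-0 beside sfr6-3, sfr6-2 stood at -0.03. The methyltransferase family genes AT4G22530 and AT1G54650 had 1.70 and 0.79, and 0.59 and 1.22. The 1.70 of AT4G22530 stood against a Col-0 value of 5.27, under the filter level, and its wild types were 1.59 apart. The 1.22 of AT1G54650 stood against a Col-0 value of 6.43, just under that level.

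Of the 37 members without a function given here, several ranked high. AT4G29780 read 8.84 in sfr6-3 against 7.71 in its Col-0, and 8.15 in sfr6-2 against 6.79 in its Col-0. AT5G05250 read 7.64 in sfr6-3 against 6.58 in its Col-0, and 7.73 in sfr6-2 against 6.47 in its Col-0. In both genes the mutants were above the wild types, as in 84.3% of all members. AT4G21140 had ratios of 1.86 and 0.96, AT2G41990 of 1.00 and 0.89, and AT1G15840 of 2.24 and 0.80. The Col-0 beside sfr6-3 read 5.93 for AT4G21140 and 5.06 for AT1G15840, both under the filter level. AT2G42040, with 0.94 and 1.12, overlapped across experiments, and set against the Col-0 beside sfr6-3, sfr6-2 stood at -0.35.

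The rule was met under each of 7 other treatments of the data by 33 of the 172 members. These were 3 normalizations, 2 treatments of dim values and 2 choices of wild-type array. They included 4 of the 8 secretory members (AT5G07340, AT2G32760, AT1G14670 and AT3G44330), 3 of 10 mitochondrial ones (AT3G59650, HLL and AT3G55605), 3 of 8 transporters (AT5G62720, AT5G03380 and AT5G62890) and 3 of 23 metabolic enzymes (AT5G41670, AT3G02910 and AT5G51830). From the wall class AT5G40150, AT4G36430 and AT3G13560 were among them, and from signalling AT2G24600, an ankyrin repeat gene, AT5G10900, AT3G16560 and AT5G51560. The others were the transcription genes AT4G16610 and AT1G06790, the RNA and translation genes AT1G23410 and AT3G58570, POR, AT4G38120 and 7 members without a function given here. None of the 9 protease, 6 ubiquitin and 4 lipid members was. GSO1, MMP and AT5G64640, named above, met the rule under none of the 7 treatments. The classes are small beside 33 of 172, and no difference between classes was tested.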

How the data were processed

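RNA from 4 samples was measured on 4 single-colour Affymetrix arrays. The deposited values are log2 expression values that the authors made with MAS5 from affy 1.36.1, per the submitters' processing notes, and on the linear scale each array has a mean of 500 after trimming 2% at each end. No normalization between arrays was added. Of 22810 probe sets, 64 array controls were set aside, 13513 are paired with 1 gene by the platform annotation, 503 with several, and 8730 are not named. Symbols came from the gene table of assembly TAIR10.1, which held 13436 of those paired with 1 gene. Where several probe sets stood for a gene, as for 146 genes, it was represented by the brightest, which gave 13356 genes. Ratios are differences of log2 values between a mutant and its own Col-0. No test was made, because the ratios chose the members and each line has 1 array. Precision is limited by this number of arrays. The code of the selection was run on simulated data with planted differences, which checks the code and not the members. Normalizations used limma 3.58.1 in R 4.3.3.

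The members, classes and family lists were chosen with earlier results of these data known. Classes by key word of a gene description had been planned for all genes, and the gene table used here has no descriptions, so members alone were sorted by hand. Named genes are the 24 with the highest lower ratio, the 5 with the widest gap each way, up to 4 per class by mean ratio, adjacent members and 3 on each side of the threshold. Others named in the text were chosen after their values were seen. Sequences are not used here. Alternatives were 3 normalizations, 2 treatments of dim values, other filters and thresholds, every probe set of a gene, and the other or the mean Col-0 array.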

Additional observations from a re-analysis of the deposited data

Results flagged for a closer look

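Probe sets that the annotation pairs with several genes or does not name also held signals of this kind. Of 6368 such probe sets past the filter level, 227 were at least 1.5-fold higher in both alleles, or 3.56%. They were flagged because no comparison above uses them, and they have no single gene to name.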

How the results depend on the processing

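The number of members, 172 as reported, was 117 after quantile normalization, 118 with arrays centred on their median, 140 with dim values raised, 171 when every probe set of a gene had to pass, 119 with the Col-0 arrays exchanged (63 of them among the 172) and 199 against the mean of both Col-0 arrays (105 among the 172). It was 84 after cyclic loess, 113 with the 20th percentile of all values added before logs, 999 without the filter, 63 with a 60th percentile filter, 11 with the threshold raised to 2-fold and 796 with the lower of the fold thresholds tried. Cyclic loess moved the median of all genes to -0.02 in sfr6-3 and 0.01 in sfr6-2. The members' median ratio in sfr6-3 was 0.72 after quantile normalization, 0.68 after cyclic loess, 0.71 after centring, 0.74 with dim values raised, 0.75 with the added percentile, 0.66 with exchanged Col-0 arrays and 0.76 against both. In sfr6-2 it was 0.74, 0.69, 0.74, 0.74, 0.70, 0.98 and 0.87 in the same order. No member fell below 0 under the first 5 of these. Neither treatment of dim values can take a ratio from above 0 to below it. Centring shifted all ratios of an allele by less than the lowest member's ratio, so it could not do so either. With the Col-0 arrays exchanged 15 members were below 0 in sfr6-3 and 12 in sfr6-2, which are the 27 that overlapped. Among genes named by rule this reversed sfr6-3 ratios of AT2G43590 (-0.83), AT3G01260 (-0.27), AT3G16990 (-0.16), AT3G60440 (-0.03), AT5G40140 (-0.43), AT5G49560 (-0.38), ATC (-1.27) and SBT4.12 (-0.26), and sfr6-2 ratios of AT1G04000 (-0.25), AT2G42040 (-0.35), AT4G25835 (-0.03) and AT5G51440 (-1.28). Among others in the text it also reversed AT3G13650 (-1.13) in sfr6-3 and AT1G75280 (-0.39), MSRB5 (-0.09), AT3G19000 (-0.05) and AT1G66180 (-0.38) in sfr6-2. Against the mean of both, ATC stood at -0.01 in sfr6-3 and AT5G51440 at -0.13 in sfr6-2. Either choice of wild type itself brings in the difference between the Col-0 arrays. No replicate could be left out, since each line had 1 array per experiment.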
